A study of Mus musculus with 12 samples.

Results

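Hearts (WT/HT) and kidneys (WT/KID) of wildtype mice were compared with each other, with 3 arrays of each organ. These 6 arrays were chosen by their labels, out of 12 arrays from wildtype and PAI-1 knockout mice. All the mice were on a C57BL/6 background, were bought from Jackson laboratory and were 12 months old, the organs were snap frozen, and no treatment is named. The other 6 arrays, from hearts (KO/HT) and kidneys (KO/KID) of mice without plasminogen activator inhibitor-1, an inhibitor of the proteases that start fibrinolysis, took part in the normalization and in the estimate of the spread. The design names wildtype heart against wildtype kidney as a comparison of its own, which gives the genes by which the organs differ where PAI-1 is present. The study's methods take the organs from 3 wildtype and 3 knockout mice, its text speaks of biological replicates and of controls matched for age and sex, and the mouse behind each array is not named, so that p-values measure the spread between these arrays. No other age was analysed here, and in RNA of an organ fewer cells of a type and less RNA per cell cannot be told apart.

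Heart muscle cells contract without rest. Their RNA is dominated by proteins of the sarcomere, by the pumps and channels that release and recover calcium at each beat, and by mitochondrial proteins that burn fatty acids. The kidney is built of epithelial tubules, in which each segment carries its own transporters. The proximal tubule takes back phosphate, glucose, amino acids and filtered protein, the thick ascending limb and distal tubule take back salt, and the collecting duct sets the water and acid of the urine.

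Illumina mouse bead arrays with 45281 probes were hybridised with labelled RNA of each organ. A value is the log2 of a probe's signal after quantile normalization over the 12 arrays, a difference is WT/HT minus WT/KID on that scale, and each probe was tested with limma with Benjamini-Hochberg adjustment. A probe counts as detected at a detection p-value under 0.01, and 18640 probes were detected in at least 1 of the 6 arrays. Where a gene was detected in no array of an organ, the fold is given as a lower bound, against the lowest signal among detected probes of each array, and a difference given for such a gene sets measured signals against a side at the floor of the arrays and is not a bound. Of the probes, 13182 (70.7%) were called at an adjusted p under 0.05, with 7031 (37.7%) higher and 6151 (33%) lower in WT/HT. The study's own criterion, a false discovery rate under 10% with at least a 1.5-fold difference, was met by 3385 probes (18.2%) higher in WT/HT and 3020 (16.2%) lower, and a 16-fold difference or more was reached by 120 and 193 probes. Taking for each of 10795 named genes its probe with the highest mean, 4030 genes (37.3%) were higher and 3794 (35.1%) lower, with a median difference of 0.02 over all genes. The 3 hearts and 3 kidneys did not overlap for 8311 genes (77%). With so large a background, a count of members called says little about a list. Most counts therefore stand with the median difference of the list or with the differences of single members.

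The labelled organs were checked against their defining markers. All 7 measured markers of heart muscle cells were higher in WT/HT, and all 5 of the proximal tubule, both of the thick ascending limb and both of the distal convoluted tubule were lower. Of 3 markers of the collecting duct 2 were lower, and Nphs1, a marker of podocytes, was lower as well. Between 14281 and 14678 probes were detected per WT/HT array and between 15070 and 15485 per WT/KID array. The correlation over the kept probes was 0.995 to 0.996 within an organ and 0.72 to 0.733 between organs. The 100 brightest probes carried 15.87 to 16.77% of the signal in WT/HT and 12.4 to 12.62% in WT/KID.

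The arrays of the organs also differed in transcripts of the sex chromosomes, with 2 of 6 measured members higher in WT/HT, 1 lower and 3 not called. Xist, the RNA that silences an X chromosome in female cells, read 7.93, 7.91 and 8.17 in the WT/HT arrays and 6.45, 6.48 and 6.49 in the WT/KID arrays, where it was not detected (adjusted p = 0.000523 by limma). Eif2s3y, a gene of the Y chromosome, read 6.49, 6.48 and 6.44 in WT/HT, where it was not detected, and 8.84, 7.97 and 8.75 in WT/KID (adjusted p = 0.0146). Eif2s3x, its relative on the X chromosome, was higher in WT/HT (0.80), and Kdm5d, Uty and Kdm6a were not called, though Kdm5d (-0.24, adjusted p = 0.0072 by limma) and Kdm6a (0.23, adjusted p = 0.023) were called in a fit of the 6 wildtype arrays alone. Uty, also of the Y chromosome, stayed near the floor and did not divide the organs, with 6.90, 6.66 and 6.62 in WT/HT, detected in replicate 1, and 6.61, 6.69 and 6.70 in WT/KID, detected in replicates 2 and 3. Xist and Eif2s3y go against hearts and kidneys of the same mice, and in the 6 arrays the organ and the sex that this pair of transcripts shows cannot be told apart. A single heart of the series, KO/HT replicate 1, held Eif2s3y (9.80) and no detected Xist, as the 6 kidneys did. For 12506 of the 13182 probes called between the wildtype organs (94.9%), this heart lay beyond the 3 KO/KID arrays on the side of the wildtype hearts. The same held for 1318 of the 1324 called probes with at least a 4-fold difference (99.5%). These shares rest on 1 array, and none is given for the other KO/HT arrays. A part of sex in the calls was not tested.

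Traces of kidney transcripts differed between the hearts. Of the 25 genes lowest in WT/HT relative to WT/KID, 2 were detected in WT/HT replicate 1, 15 in replicate 2 and 14 in replicate 3, with median levels of 6.50, 6.81 and 6.74. In KO/HT the counts were 3, 14 and 16. Napsa, an aspartic protease of the proximal tubule and the lung, read 6.80, 8.05 and 8.27 in WT/HT and 14.51, 14.51 and 14.74 in WT/KID. Its difference was -6.88 with all hearts and -7.79 with replicate 1 as the sole wildtype heart, a setting and a gene chosen after the values were seen. Of the 25 genes highest in WT/HT, 6, 5 and 6 were detected in the 3 WT/KID arrays. What these traces add to the differences below was not tested.

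**Figure D1:**
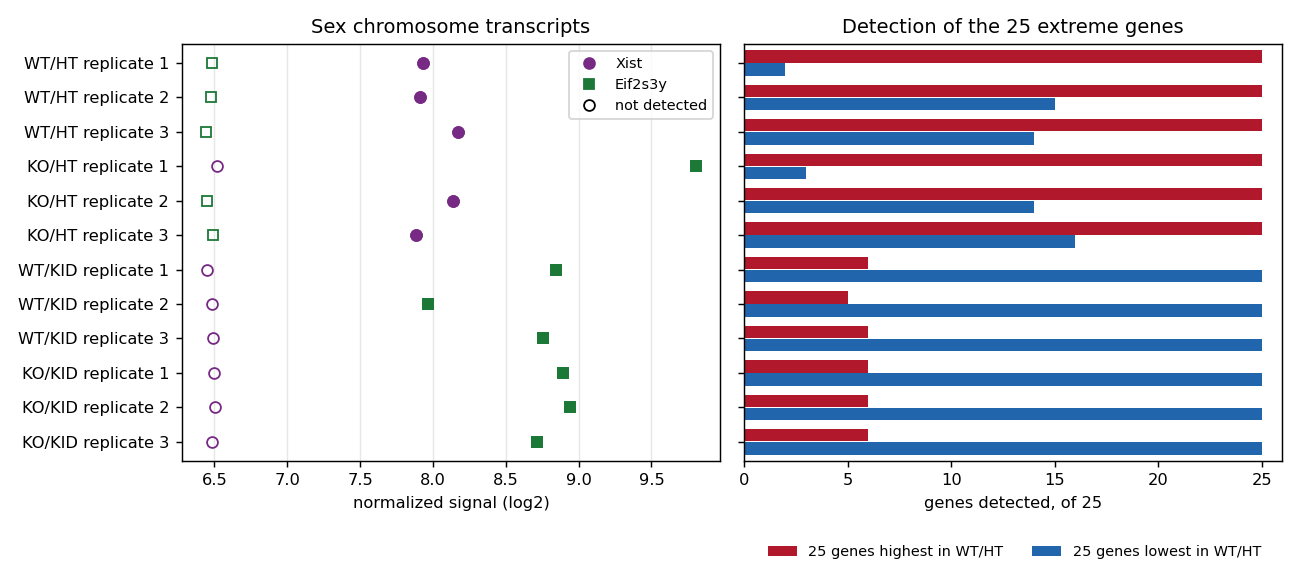
Left, the log2 signal of Xist and of Eif2s3y in each of the 12 arrays, with open symbols where the transcript was not detected. Right, the number of the 25 genes highest and of the 25 genes lowest in WT/HT that were detected in each array. Of the WT/HT arrays, replicate 1 detected 2 and replicates 2 and 3 detected 15 and 14 of the genes lowest in WT/HT.

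Proteins of the sarcomere, the contractile unit of muscle, led the genes higher in WT/HT. Myl3, an essential light chain of ventricular myosin, read 14.98, 15.15 and 14.97 in WT/HT and 6.44, 6.42 and 6.47 in WT/KID. Myl2, the regulatory light chain, read 15.02, 15.02 and 15.06 against 6.46, 6.45 and 6.45. Neither was detected in any WT/KID array, and the hearts lay at least 328-fold higher for Myl3 and at least 329-fold higher for Myl2. The fitted differences were 8.59 ± 0.06 (SE, adjusted p = 5.84e-17 by limma) and 8.58 ± 0.05 (adjusted p = 8.46e-18). Actc1, the cardiac actin, read 14.53, 14.59 and 14.46 in WT/HT and 6.45, 6.41 and 6.48 in WT/KID, at least 232-fold higher. Mb, the oxygen store myoglobin, was at least 247-fold higher, and Myh6, the main myosin heavy chain of the adult mouse heart, at least 221-fold. The remaining genes among the 10 largest were Csrp3 and Tcap, which sit at the Z disc of the sarcomere, Cox6a2, Ckmt2 and Tnnc1, with differences of 7.53 to 7.59. Of these, Cox6a2, a subunit of cytochrome c oxidase, and Tnnc1, the calcium sensor of the thin filament, were also detected in WT/KID, at 7.06 to 7.45 and 7.21 to 7.38. Ckmt2 is the mitochondrial creatine kinase of striated muscle, which makes phosphocreatine, and it was at least 171-fold higher.

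Transporters and enzymes of the proximal tubule led the genes lower in WT/HT. Slc34a1, the sodium-phosphate cotransporter that recovers phosphate from the filtrate, read 15.06, 15.06 and 14.97 in WT/KID and 6.44, 7.27 and 6.97 in WT/HT. The difference was -8.13 ± 0.16 (SE, adjusted p = 1.84e-13 by limma), a 281-fold difference, with the gene detected in 2 of the 3 hearts. Kap, the androgen-regulated protein of the proximal tubule, read 14.56, 14.53 and 14.61 in WT/KID and 6.44, 6.65 and 7.29 in WT/HT (-7.77 ± 0.19, adjusted p = 1.34e-12). Miox, which breaks down inositol, read 14.46, 14.37 and 14.37 in WT/KID and 6.53, 6.79 and 6.73 in WT/HT (-7.72 ± 0.07, adjusted p = 3.78e-16). In each of these genes WT/HT replicate 1 was the lowest heart, and the organs lay far from any overlap. Next came Keg1, a transferase-like gene named for its kidney expression, at -7.64, and Umod, the most abundant protein of normal urine and a product of the thick ascending limb, at -7.35. Pdzk1, a scaffold of brush border transporters, differed by -7.32, and Slc27a2, a fatty acid transporter and acyl-CoA synthetase, by -7.24. The last of the 10 were Guca2b, the peptide uroguanylin, at -7.02, Ugt3a2, a glycosyltransferase that was detected in no heart and was at least 114-fold lower there, and Cdh16, the cadherin of kidney epithelium, at -6.97.

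**Figure D2:**
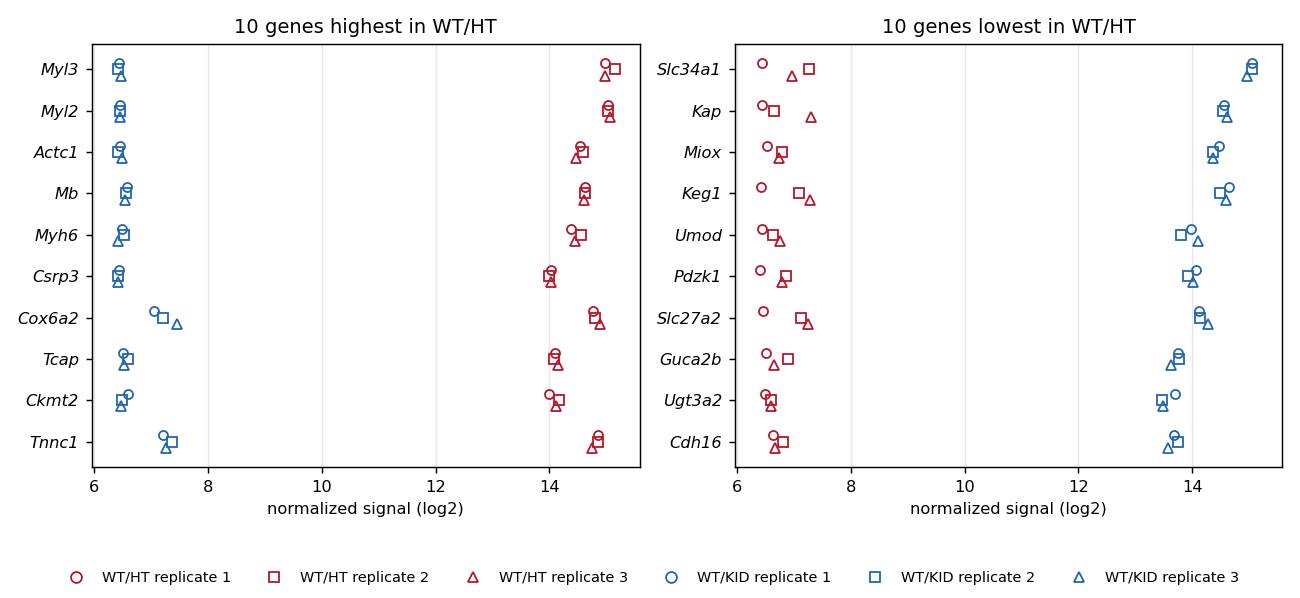
The log2 signal of the 10 genes highest (left) and the 10 lowest (right) in WT/HT relative to WT/KID, with 1 symbol per array, red for WT/HT and blue for WT/KID. The organs do not overlap for any of the 20 genes, and WT/HT replicate 1 has the lowest value of the hearts for each of the 10 genes on the right.

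The regions before the start sites of the genes that differed most were read from RefSeq (GRCm38.p6, windows from 250 bases before to 50 after a start). Windows existed for 74 of the 85 genes at least 16-fold higher in WT/HT (95 windows) and for 118 of the 143 genes at least 16-fold lower (146 windows), and all genes of the table gave 32851 windows. Each motif was searched on both strands, and a match describes the letters only. The CArG box, the site of serum response factor in muscle genes, was in 11 of the 95 heart windows (11.6%), 2 of the 146 kidney windows (1.37%) and 1.63% of all windows. The MEF2 site, bound by the myocyte enhancer factors, was in 9.47%, 1.37% and 3.19%. Letters GTTAAT, a half-site of the kidney and liver factor HNF1, were in 7.37% of the heart windows, 26 of the 146 kidney windows (17.8%) and 7.1% of all. The longer consensus of HNF1, which holds the half-site, was in 0 heart windows, 1.37% of kidney windows and 0.0578% of all. CAAAGT, a core of HNF4 sites, was in 15.8% of heart windows, 24% of kidney windows and 14.4% of all, CATTCC, the M-CAT element of muscle genes, in 24.2%, 16.4% and 14.7%, and TATAAA, the TATA box, in 22.1%, 18.5% and 13.6%. AAGGTCA, a core of sites of the estrogen-related receptors, was in 7.37%, 5.48% and 4.72%, and the longer TCAAGGTCA, which holds it, in 0 heart windows, 0 kidney windows and 0.423% of all. CAAAGTCCA, a longer HNF4 site, was in 1.05%, 2.74% and 0.475%. In the 11214 windows of the genes tested here the shares were 1.48% for the CArG box, 1.86% for the MEF2 site, 4.74% for GTTAAT, 0.0357% for the longer HNF1 consensus, 12.2% for CAAAGT, 12.5% for CATTCC, 7.9% for TATAAA and 3.29% for AAGGTCA. The 180 bases before the start are shown for 6 of these genes, 5′ to 3′ on the gene's strand, because their windows hold the CArG box (Myl3, Actc1), the MEF2 site (Ttn, Mybpc3) or the HNF1 half-site on either strand (Slc34a1, Miox), which is in capitals.
Myl3 (chr9:110763498-110763677, + strand): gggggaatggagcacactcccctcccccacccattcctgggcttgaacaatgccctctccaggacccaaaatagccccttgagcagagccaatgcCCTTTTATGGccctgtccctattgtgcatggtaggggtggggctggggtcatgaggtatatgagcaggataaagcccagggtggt
Actc1 (chr2:114052876-114053055, - strand): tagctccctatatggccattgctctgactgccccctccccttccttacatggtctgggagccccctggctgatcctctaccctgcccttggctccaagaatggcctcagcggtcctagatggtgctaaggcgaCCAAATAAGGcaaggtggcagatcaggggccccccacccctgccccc
Ttn (chr2:76982548-76982727, - strand): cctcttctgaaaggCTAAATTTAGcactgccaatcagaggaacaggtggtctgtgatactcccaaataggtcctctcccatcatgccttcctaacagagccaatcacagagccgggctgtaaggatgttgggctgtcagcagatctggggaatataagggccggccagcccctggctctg
Mybpc3 (chr2:91117964-91118143, + strand): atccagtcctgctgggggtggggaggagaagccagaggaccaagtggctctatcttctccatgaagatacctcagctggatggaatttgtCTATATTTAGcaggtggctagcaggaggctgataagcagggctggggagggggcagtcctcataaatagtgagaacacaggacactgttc
Slc34a1 (chr13:55399468-55399647, + strand): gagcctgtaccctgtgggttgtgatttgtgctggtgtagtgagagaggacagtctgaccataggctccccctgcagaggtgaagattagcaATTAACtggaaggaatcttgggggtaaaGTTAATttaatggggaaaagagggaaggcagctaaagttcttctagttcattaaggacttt
Miox (chr15:89334293-89334472, + strand): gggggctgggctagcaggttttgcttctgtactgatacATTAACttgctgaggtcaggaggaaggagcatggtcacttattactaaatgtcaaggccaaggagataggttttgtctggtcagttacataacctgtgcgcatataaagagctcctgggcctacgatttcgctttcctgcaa
Counted from the start, the capitals begin at -85 in Myl3, -47 in Actc1, -166 in Ttn, -90 in Mybpc3, -89 and -61 in Slc34a1 and -142 in Miox. Ttn, the giant spring protein of the sarcomere, and Mybpc3, which binds myosin in the thick filament, were at least 89.9-fold and 86.1-fold higher in WT/HT.

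Of 27 measured sarcomere genes, 25 were higher and 1 was lower in WT/HT, with a median difference of 5.46, and 16 were detected in all hearts and in no kidney. For comparison, 509 of all genes (4.72%) had that detection pattern. All 9 probes of Ttn were higher. Other members differed less. Myh7, the slow myosin heavy chain, read 7.94, 7.65 and 7.98 in WT/HT and 6.45, 6.46 and 6.49 in WT/KID (1.39, adjusted p = 0.00328 by limma), and 1 of its 3 probes was called. Lmod2 and Mybphl, an actin nucleator and a myosin-binding protein, were higher by 0.31 and 0.27. Myl7, the light chain of the atrium, was detected in 1 heart and no kidney, and its difference was 0.02 (adjusted p = 0.838). Tpm1, a tropomyosin of many tissues, was lower by both of its probes (-0.51, adjusted p = 0.000445), with 9.93, 9.79 and 9.83 in WT/HT and 10.31, 10.19 and 10.57 in WT/KID.

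The genes that move calcium were higher in WT/HT for 16 of 16 members, with a median of 3.16, each by its probe with the highest mean. With the detected probes of a gene averaged, 1 member was lower and the median was 2.02. Hrc, a calcium-binding protein of the sarcoplasmic reticulum, was at least 105-fold higher. Pln, the brake on the calcium pump, read 12.58, 12.55 and 12.15 in WT/HT and was detected in no kidney (at least 54.0-fold). Ryr2, the calcium release channel, read 12.32, 12.39 and 12.34 against 6.52, 6.53 and 6.54 (at least 51.2-fold). Smallest were Cacna2d1, Cacna1c and Asph, with 1.22, 0.28 and 0.24. Cacna1c is the pore of the L-type calcium channel, through which calcium enters at each beat, and Asph, a hydroxylase gene that also encodes the reticulum protein junctin, is used by many tissues. The call of Asph was lost without WT/HT replicate 2 (0.21) or 3 (0.23) or WT/KID replicate 3 (0.18), and its difference was -0.06 with arrays centred on their medians.

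Ion channel and junction genes were higher for 16 of 17 members, with a median of 1.08. Highest were Popdc2, a membrane protein of heart and muscle, at least 62.1-fold higher, and Gja1 (4.95), the gap junction protein that couples ventricular cells, and the member not called was Cdh2, N-cadherin (0.06, adjusted p = 0.392 by limma). Pkp2, a plakophilin of the desmosome, differed by 2.83. Of the transcription factors of the heart, 19 of 20 were higher, with a median of 0.94. Ankrd1, a regulator induced by stretch, differed by 6.39, Hopx by 4.74 and Gata6 by 3.71. Nkx2-5, the homeobox factor of heart development, read 8.74, 8.53 and 8.56 in WT/HT and was not detected in WT/KID, at least 3.83-fold higher.

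The natriuretic peptides, hormones by which the heart lowers blood pressure and which act on the kidney, varied between the hearts. Nppa read 11.33, 13.03 and 13.16 in WT/HT and 6.53, 6.50 and 6.57 in WT/KID (5.97 ± 0.44, adjusted p = 8.61e-08 by limma, at least 57-fold). Nppb read 12.56, 13.45 and 13.53 in WT/HT (6.71 ± 0.26, at least 90.8-fold). For both, replicate 1 was the lowest heart, and Nppa was at 4.79 with it as the sole wildtype heart. Corin, the protease that activates the peptides, was higher by 4.56. Of the 10 secreted factors measured, 9 were higher and 1 lower, with a median of 2.02. The one lower was Igfbp3, a carrier of insulin-like growth factors (-2.36).

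**Figure D3:**
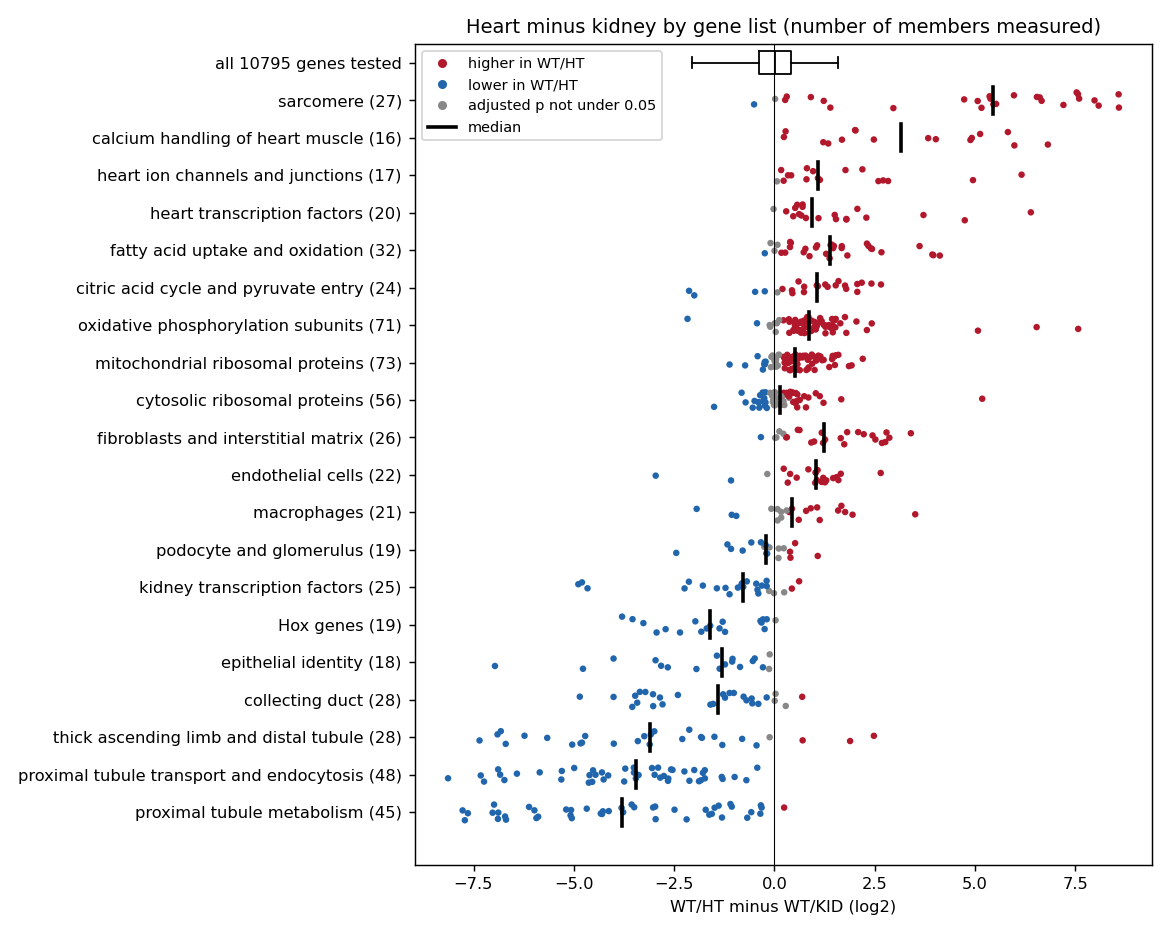
Differences between WT/HT and WT/KID (log2) for the measured members of 20 of the gene lists, with 1 point per gene, red where higher, blue where lower and grey where not called, and a black bar at the median. The box on the first line gives the quartiles of all 10795 genes and its whiskers the 5th and 95th percentiles. Sarcomere genes (median 5.46) and proximal tubule genes (medians -3.45 and -3.81) lie farthest apart.

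Genes of fatty acid uptake and oxidation were higher in WT/HT for 28 of 32 members, with a median of 1.39, and lower for 1. Cpt1b, the muscle form of the enzyme that admits fatty acids to mitochondria, read 12.22, 12.24 and 12.25 in WT/HT and 8.14, 8.08 and 8.12 in WT/KID (4.12). Fabp3, the fatty acid carrier of heart and muscle, was higher by 3.94. Pdk4, the kinase that shuts the entry of pyruvate when fat is burnt, read 10.21, 12.22 and 12.42 in WT/HT and 7.35, 7.45 and 8.16 in WT/KID (3.96 ± 0.47, adjusted p = 8.26e-06 by limma). Its lowest heart was again replicate 1, and the difference was 2.56 with that heart alone. Acads, the short-chain acyl-CoA dehydrogenase, was the one member lower in WT/HT (-0.24), with a second, dimmer probe higher (0.41).

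Of the citric acid cycle and the entry of pyruvate, 19 of 24 genes were higher and 4 lower, with a median of 1.07. Pdhb, a subunit of pyruvate dehydrogenase, differed by 2.66, Cs, citrate synthase, by 2.42 and Mdh2, mitochondrial malate dehydrogenase, by 2.18. The 4 lower were Idh3b (-2.13), a subunit of isocitrate dehydrogenase whose partners Idh3a and Idh3g were higher (2.07 and 0.60), and Pcx (-2.00), pyruvate carboxylase, the first enzyme of gluconeogenesis. The others were Oxct1 (-0.48), which activates ketone bodies, and Suclg2 (-0.24), a subunit of succinyl-CoA synthetase, whose call was lost without any 1 of the 6 arrays (-0.27 to -0.22). Oxct1 has a second probe, which was higher in WT/HT (0.90). Among subunits of oxidative phosphorylation 63 of 71 were higher and 2 lower, with a median of 0.85. The largest differences belonged to Cox6a2 (7.57), Cox8b (6.54) and Cox7a1 (5.07), all forms of cytochrome c oxidase subunits found in heart and muscle, and the lower ones were Cox6a1 (-2.17) and Cox6b2 (-0.43).

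Mitochondrial ribosomal proteins were higher for 53 of 73 members and lower for 8, with a median of 0.50, with Mrpl42 (1.92) and Mrpl3 (1.86) among the highest and Mrps6 (-1.12) the lowest. With arrays centred on their medians in place of quantile normalization, 30 were higher and 20 lower, with a median of 0.13. Cytosolic ribosomal proteins were higher for 23 and lower for 16 of 56, with a median of 0.13, or for 14 and 16 with a median of -0.04 with the arrays centred. One member stood apart. Rpl3l, the form of ribosomal protein L3 made in heart and skeletal muscle, read 13.43, 13.35 and 13.33 in WT/HT and 8.34, 8.22 and 8.02 in WT/KID (5.18 ± 0.14, adjusted p = 4.21e-12 by limma). Rpl3, the general form, was lower in WT/HT, with 12.35, 12.43 and 12.42 against 13.21, 13.07 and 13.08 (-0.72, adjusted p = 0.000612). Proteasome subunits were higher for 19 and lower for 5 of 34 (median 0.24), a balance that turned to 5 and 9 (median 0.0038) with the arrays centred. The largest differences were those of Psmb10 (1.79) and Psmb8 (1.51), catalytic subunits of the immunoproteasome.

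Many enzymes exist as a form typical of heart or muscle and a form used elsewhere, and 22 such pairs were listed, of which 12 had both members measured. The heart or muscle form was higher in WT/HT in 11 pairs, the other form was lower in 9, and both held in the same 9. For the cytosolic creatine kinases, Ckm was at least 104-fold higher, with 13.46, 13.31 and 13.33 in WT/HT, and Ckb, the brain form, was lower (-1.22), with 11.80, 11.52 and 11.83 in WT/HT and 12.96, 12.90 and 12.95 in WT/KID. For the mitochondrial ones, Ckmt2 was higher by at least the 171-fold given above and Ckmt1 lower by at least 8.81-fold. Of the glucose transporters, the insulin-responsive Slc2a4 was higher by 3.20 and Slc2a2, which passes recovered glucose back to the blood, lower by at least 7-fold. Fbp1, the fructose bisphosphatase of gluconeogenesis, read 12.76, 12.70 and 12.64 in WT/KID and was detected in no heart (at least 63.5-fold lower), and its muscle counterpart Fbp2 was higher by 0.87. Pgam2 and Pgam1, phosphoglycerate mutases, differed by 2.62 and -0.54, Pygb and Pygl, glycogen phosphorylases of brain and heart and of liver, by 3.93 and -1.49, and the calcium pumps Atp2a2 and Atp2a3 by 5.13 and -0.39. The succinyl-CoA synthetase subunits Sucla2 and Suclg2 differed by 0.20 and -0.24. In this pair and for Atp2a3 the calls did not hold without each array. That of Sucla2 was lost without WT/HT replicate 3 (0.19) or WT/KID replicate 3 (0.17), that of Suclg2 without any 1 of the 6 (-0.27 to -0.22), and that of Atp2a3 without WT/HT replicate 1 or WT/KID replicate 3 (-0.33 in both).

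The other 3 pairs did not divide in that way. Both phosphofructokinases were higher in WT/HT, Pfkm by 3.30 and Pfkl by 0.98. Cox7a1 was higher by 5.07, and the difference of Cox7a2 was 0.01 (adjusted p = 0.953 by limma), but -0.45 and called lower with arrays centred on their medians (adjusted p = 0.000666), which would divide this pair like the 9. Ldhb, lactate dehydrogenase of the heart type, lay near the floor of the arrays, with 6.54, 6.61 and 6.57 in WT/HT and 6.75, 6.73 and 6.65 in WT/KID, and was detected in no heart and 2 kidneys (-0.13, adjusted p = 0.0276). The call of Ldhb was lost without WT/HT replicate 1 (-0.12) or 3 (-0.13) or WT/KID replicate 1 or 2 (-0.12 in both). A single probe stood for it, and Ldha read between 12.91 and 13.10 in all 6 arrays (-0.05, adjusted p = 0.648).

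**Figure D4:**
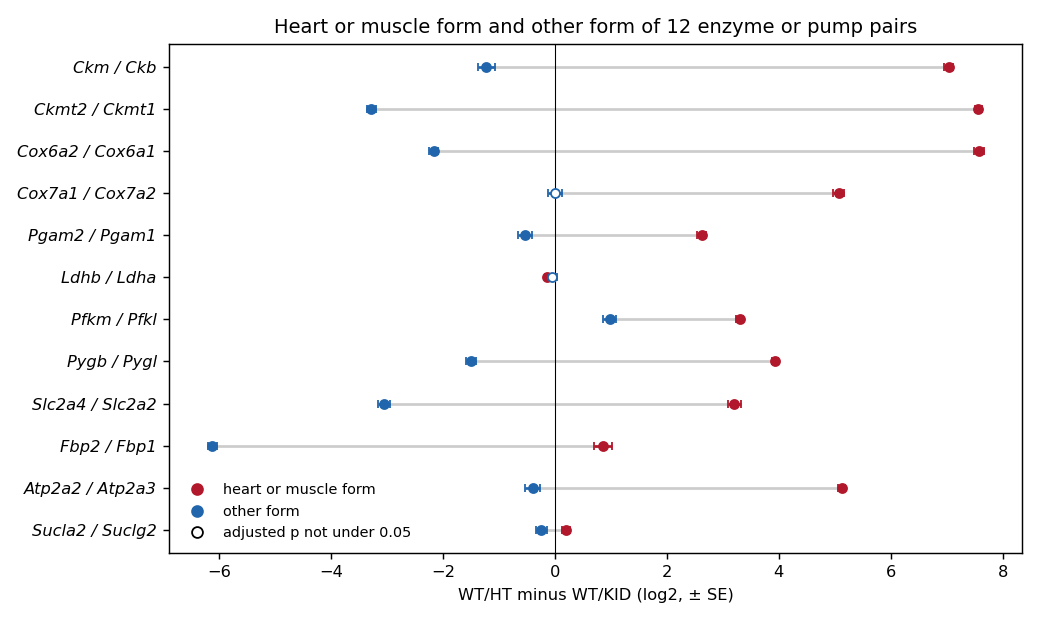
Differences between WT/HT and WT/KID (log2, with the SE of the fit) for 12 pairs, red for the form of heart or muscle and blue for the other, with open points where the adjusted p was not under 0.05. The red point lies to the right of the blue one in 11 pairs, and only Ldhb and Ldha have the opposite order.

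All 48 measured genes of proximal tubule transport and endocytosis were lower in WT/HT, with a median of -3.45, or -3.37 with genes not detected in the hearts set at their bound. In 26 of them every kidney and no heart detected the gene, a pattern that 947 of all genes (8.77%) had. Lrp2, megalin, the receptor that takes up filtered protein, differed by -6.84, its partner Cubn was at least 5.07-fold lower, and Slc5a2, the glucose transporter of the early tubule, at least 5.94-fold. The smallest differences were those of Slc13a1, Mme and Slc22a8 (-0.43, -0.70 and -0.99), for sulfate transport, peptide cleavage and anion transport. Aqp1, the water channel that the endothelium of the heart also holds, read 12.02, 11.92 and 11.53 in WT/HT and 13.08, 13.14 and 13.20 in WT/KID (-1.31). Of the 45 genes of proximal tubule metabolism 44 were lower, with a median of -3.81, and Gys1, the glycogen synthase of muscle, was the one higher (0.24).

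Along the rest of the nephron, 24 of 28 genes of the thick ascending limb and distal tubule were lower in WT/HT, with a median of -3.09. Klk1, the kallikrein of the distal nephron, was at least 106-fold lower, and Fxyd2, a subunit of the sodium pump, differed by -6.82. Slc12a1, the salt cotransporter blocked by furosemide, was at least 44.3-fold lower, and Slc12a3, the one blocked by thiazides, was lower by less (-1.81), with 8.92 to 9.01 in WT/HT. The 3 members higher in WT/HT were Slc8a1, the sodium-calcium exchanger that heart muscle also uses (2.48, with a second probe lower), and the kinases Stk39 (1.89) and Wnk1 (0.70). In the collecting duct list 24 of 28 were lower, with a median of -1.40, and 21 were detected in all kidneys and no heart. Aqp2, the water channel placed by vasopressin, read 9.41, 9.75 and 10.27 in WT/KID and was not detected in WT/HT (at least 8.56-fold lower). Car12, a carbonic anhydrase, was at least 24.4-fold lower, and Krt8, a keratin of simple epithelium, differed by -4.01. Kcne1, a potassium channel subunit of heart and tubule, was the one higher (0.69, adjusted p = 0.0418), with 8.46 in WT/HT replicate 1 and 7.59 and 7.68 in the others. Its difference was 0.42 and not called without WT/HT replicate 1, and the call was also lost without any 1 of the WT/KID arrays (0.64 to 0.74).

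Podocytes, the cells of the glomerular filter, gave a weak signal in the kidney. Of 19 members 10 (52.6%) were lower and 4 (21.1%) higher in WT/HT, where 35.1% and 37.3% of all genes were. The median was -0.20. Nphs1, nephrin, the protein of the slit diaphragm, was detected in 2 of 3 WT/KID arrays and read 6.67, 6.75 and 6.65 there and 6.47, 6.39 and 6.47 in WT/HT (-0.25, adjusted p = 0.00273 by limma). Col4a4, a collagen chain of the glomerular basement membrane, was at least 5.23-fold lower. Vegfa, the vascular growth factor of podocytes and of heart muscle, was higher in WT/HT (1.08).

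Transcription factors of the kidney were lower for 20 of 25 members, with a median of -0.78. Hnf4a, a nuclear receptor of proximal tubule and liver, read 11.57, 11.60 and 11.71 in WT/KID and 6.76, 6.86 and 6.60 in WT/HT (-4.89). Tfcp2l1, a factor of the distal nephron, was at least 27.1-fold lower and Nr1h4, the bile acid receptor, at least 23.4-fold. The 2 members higher were Esrrg (0.62) and Esrra (0.43), receptors that also act on mitochondrial genes in heart. Hox genes, which mark the position of a tissue along the body axis, were lower for 18 of 19 measured members and higher for none, with a median of -1.60, or -1.42 with genes not detected in the hearts at their bound, and 12 were detected in all kidneys and no heart. Of these, Hoxb7 read 10.30, 10.49 and 10.26 in WT/KID and was at least 12.4-fold lower in WT/HT, Hoxa7 at least 10.8-fold and Hoxc6 at least 8.25-fold.

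Genes of epithelial identity were lower for 16 of 18 and higher for none, with a median of -1.30. Beside Cdh16 (-6.97) and Krt8, Spint1, a protease inhibitor of epithelia, was at least 24.3-fold lower. Claudins, which seal or open the paths between epithelial cells, were lower for 12 of 15, with a median of -0.81. Of the pore-forming claudins of the nephron, Cldn10 differed by -6.23 and Cldn2 was at least 36.4-fold lower, and Cldn5, the claudin of endothelium, was higher in WT/HT (1.55). Of the renin-angiotensin system and the kidney hormones 11 of 12 were lower and 1 was higher, with a median of -1.285. Kl, the anti-ageing protein klotho and a coreceptor for FGF23, read 11.61, 11.48 and 11.48 in WT/KID and was not detected in WT/HT (at least 28.1-fold lower). Egf differed by -4.72. Agtr1a, the angiotensin receptor, was the one higher, with 9.97, 9.85 and 9.79 in WT/HT and 9.08, 8.99 and 9.11 in WT/KID (0.82, adjusted p = 0.00292).

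Cells of vessels and connective tissue occur in both organs. Endothelial genes were higher in WT/HT for 19 of 22 members and lower for 2, with a median of 1.04. Vwf, the clotting factor stored in endothelium, read 9.96, 9.66 and 9.62 in WT/HT and 7.02, 7.18 and 7.09 in WT/KID (2.65). Plvap, the protein of the diaphragms of fenestrated capillaries, went the other way, with 8.17, 7.92 and 8.01 against 10.96, 10.99 and 11.03 (-2.96, adjusted p = 7.32e-11 by limma), and so did Ehd3 (at least 2.01-fold lower), which glomerular endothelium expresses. Fibroblast and matrix genes were higher for 21 of 26 and lower for 1, with a median of 1.24. Lum, a collagen-binding proteoglycan, was at least 9.89-fold higher, Gsn, an actin-severing protein, differed by 2.86 and Dcn, another proteoglycan, by 2.79. Col1a1 and Col3a1, the chains of fibrillar collagen, were higher by 0.99 and 0.92, and Tcf21, a factor of fibroblasts and podocytes, was the one lower (-0.34), a call lost without WT/HT replicate 1 (-0.27) or 2 (-0.33) or WT/KID replicate 1 (-0.26) or 2 (-0.31). Smooth muscle and pericyte genes were higher for 11 of 15, with a median of 0.79. They were led by Des (5.46) and Abcc9 (3.28), both of which heart muscle cells also make. Acta2, smooth muscle actin, was higher by 1.66.

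More macrophage genes were higher than lower in WT/HT. Of 21 members 12 (57.1%) were higher and 3 (14.3%) lower, where 37.3% and 35.1% of all genes were, with a median of 0.44. Lyz2, lysozyme, read 10.16, 10.73 and 11.33 in WT/HT and 7.13, 7.01 and 7.54 in WT/KID (3.51 ± 0.24, adjusted p = 3.55e-08 by limma), followed by Mrc1 (1.95), the mannose receptor, and C1qc (1.76), a chain of complement C1q. Lower were Lgmn (-1.94), a lysosomal protease that the proximal tubule also makes, and Cd74 (-1.06) and H2-Ab1 (-0.95), which serve antigen presentation by class II molecules. With its detected probes averaged, the call of H2-Ab1 was lost (-0.41). Of 21 lymphocyte genes listed 7 were measured, 2 of them lower, with a median of -0.12.

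Transcripts of adipocytes were present and uneven in the kidneys. Adipoq, adiponectin, read 9.19, 8.43 and 9.57 in WT/KID and 6.66, 6.81 and 6.76 in WT/HT (-2.32 ± 0.23, adjusted p = 1.38e-06 by limma), and Cidec, a lipid droplet protein, read 7.51 in WT/KID replicate 2, 8.34 in replicate 3 and between these in replicate 1, and was not detected in WT/HT. Lep, leptin, read 7.68 and 6.70 in WT/KID replicates 2 and 3 and was highest in replicate 1. Cidea, another lipid droplet protein, was higher in WT/HT (9.51, 9.63 and 9.62) and read 6.99, 6.62 and 7.95 in WT/KID. Cox8b read 7.65, 6.65 and 8.69 in WT/KID and 14.07, 14.28 and 14.25 in WT/HT (6.54 ± 0.49). Adipoq, Cidec, Cidea and Cox8b were thus all lowest in WT/KID replicate 2 and highest in replicate 3, while Lep was lowest in replicate 3. Over the 8 adipocyte genes measured, 5 lower and 2 higher in WT/HT, the median level per array ran from 6.63 to 6.77 in WT/HT and from 7.23 to 7.66 in WT/KID. How far these transcripts enter the kidney values of genes they share with heart, such as Cox8b, was not tested.

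Genes that androgens raise in the mouse kidney were lower in WT/HT for all 9 measured members, with a median of -4.48. Kap differed by -7.77, Cyp2e1, a cytochrome, by -6.89, and Slc22a12, a urate transporter, was at least 48.7-fold lower. The smallest differences were those of Akr1c21, Gusb and Slc7a13 (-1.10, -0.86 and -0.17). The call of Slc7a13 was lost without WT/HT replicate 2 (-0.16) or 3 (-0.14) or WT/KID replicate 1 (-0.14) or 2 (-0.17). In KO/HT replicate 1, the heart with Eif2s3y, Kap read 6.50, and all 9 genes were below the 3 KO/KID arrays. No kidney of the series lacked Eif2s3y, so that for these genes sex and organ cannot be told apart. A part of androgens in the differences was not tested.

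Genes of the immediate early and stress response were higher for 9 and lower for 9 of 23 (39.1% each), where 37.3% and 35.1% of all genes were. Their median of -0.15 was 0.06 without WT/HT replicate 2. Egr1, a factor induced within minutes, read 10.85, 9.41 and 9.66 in WT/HT and 9.92, 10.16 and 10.52 in WT/KID, so that the organs overlapped (adjusted p = 0.556 by limma), and Fos read 8.28, 6.82 and 6.92 against 6.89, 6.83 and 7.60 (adjusted p = 0.545). Both genes were named after their values were seen, and in both WT/HT replicate 1 was the highest heart. Without it Egr1 was lower in WT/HT (-0.66, adjusted p = 0.0364), and the difference of Fos was -0.24. Hspb1, a small heat shock protein of muscle, was higher by 2.88, and Gadd45g and Hspa1a, a growth arrest and a heat shock gene, were lower (-1.74 and -1.54). Of 12 clock genes 4 (33.3%) were higher and 2 (16.7%) lower, with a median of 0.05, or 1 and 4 with arrays centred on their medians. Arntl differed by 0.66 and Tef by -1.24. Senescence and cell cycle arrest genes were higher for 7 (41.2%) and lower for 6 (35.3%) of 17, or for 3 and 6 with the arrays centred. Their median was 0.15, and the shares of 41.2% and 35.3% lie near those of all genes. Ccnd2, a cyclin, and Cdkn1a, the inhibitor p21, were higher by 1.57 and 1.38, and Igfbp3 and Igfbp5, carriers of insulin-like growth factors, were lower (-2.36 and -1.59).

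Of 15 genes in common use as references for expression, 12 were called, 4 higher and 8 lower, with a median of -0.40. Of all genes 72.5% were called. B2m, the light chain of class I molecules, was higher by 1.37 and Gapdh by 0.51, and Ywhaz, Eef1a1 and Ppia were lower (-1.49, -1.39 and -1.06). For this pair of organs the study singles out 24 genes, listed as differing between wildtype and not between knockout organs. None of these 24 was among the named genes for which the organ difference was called as differing between the genotypes. The 24 are a part of the study's list of such genes. Its wider naming of that list, by biological process, holds Haghl, whose interaction was called (-0.60). The 24 were chosen on these arrays, so that they are not independent evidence of a direction. Of the 21 measured, 12 were higher and 9 lower in WT/HT, or 8 and 9 with arrays centred on their medians. Vegfc, a lymphatic growth factor, Taf9, a subunit of TFIID, and Nfatc1, a factor activated by calcineurin, differed by 1.10, 1.05 and 1.01, and Zfp36, an RNA-binding protein, by -1.11. Mapk13, a kinase, was at least 1.78-fold lower. Dapk2 and Ubtf, a death-associated kinase and a factor of ribosomal RNA transcription, followed with -0.81 each.

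Of 3812 genes with several kept probes, 226 had probes called in opposite directions, and in 6 both differences were at least 2-fold. Slc8a1, which is known to be transcribed from separate promoters in heart and kidney, had a probe at 11.44, 11.57 and 11.47 in WT/HT and 9.13, 9.07 and 8.84 in WT/KID (2.48, adjusted p = 1.73e-11 by limma). The other read 9.96, 9.92 and 9.59 in WT/KID and was detected in no heart (at least 8.63-fold lower). The organs thus ranked in opposite order by the 2 probes, with no overlap in either. Pde4dip, myomegalin, a scaffold of phosphodiesterase and of the Golgi, had 4 probes. One read 13.22, 13.34 and 13.32 in WT/HT and 8.84, 8.72 and 8.87 in WT/KID (4.49), and another 7.46, 7.68 and 7.59 against 9.50, 9.50 and 9.52 (-1.93). In GRCm38.p6 it overlaps 4 other genes, the largest overlap being 14651 bases with the long noncoding RNA Gm31305, so that the gene behind its probes is uncertain too. Prepl, a peptidase-like gene, had a probe higher by 2.13 and one that read 12.77, 12.85 and 12.85 in WT/KID and was detected in no heart (-6.25, at least 69.2-fold lower). In GRCm38.p6 Prepl shares 1731 bases with Slc3a1, an amino acid transporter subunit of the proximal tubule, so that the gene behind either probe is uncertain. Ddo, an oxidase of D-aspartate, had a pair of probes higher (1.05 and 1.22) and a pair lower (-1.32 and -2.34). Gsta1, a glutathione transferase with near-identical relatives, and Ypel5 made up the 6, with differences of -1.68 to 1.45 and of -1.48 to 1.11. Smaller disagreements touched the reference gene Actb, with 1 of 5 probes higher and 2 lower.

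The organs of PAI-1 knockout mice, which share no array with the wildtype organs, gave the same contrast again in the same normalization and fit. Of the 13182 probes called in wildtype, 11430 (86.7%) were called in the same direction in KO/HT against KO/KID and 18 in the opposite direction. The interaction of genotype and organ was called for 21 probes (0.113%), and 1655 had an unadjusted p under 0.05. Of the 1734 probes called in wildtype and called in neither direction in knockout organs, 7 had a called interaction. Actc1 differed by 8.12 in the knockout organs and Slc34a1 by -8.22. Nppa was at 7.43 there and Myh7 at 2.47, against 5.97 and 1.39 in wildtype, and neither interaction was called (adjusted p = 0.532 and 0.563).

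**Figure D5:**
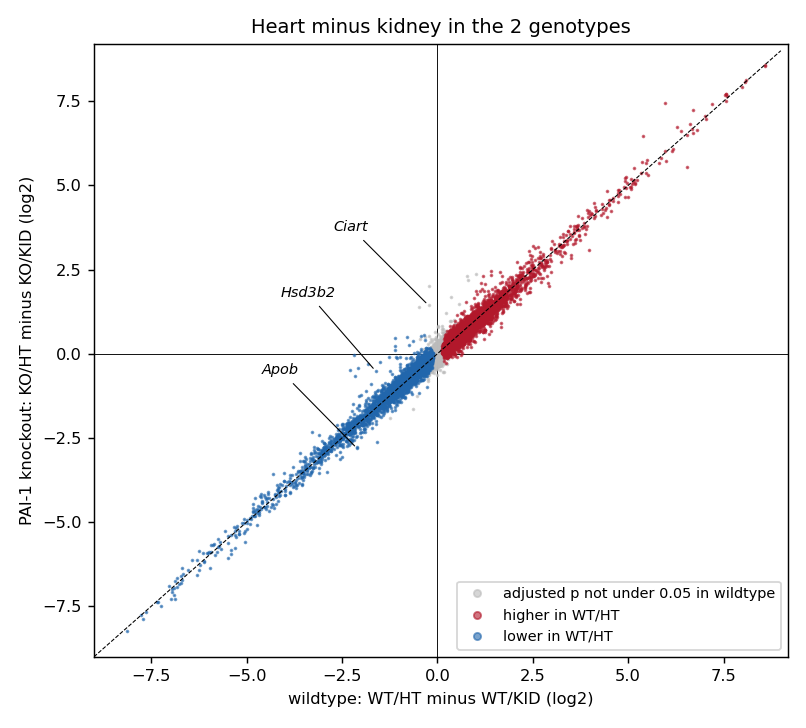
The difference between heart and kidney (log2) in wildtype mice (x axis) and in PAI-1 knockout mice (y axis). Each of the 10795 named genes is drawn by its probe with the highest mean. Points are red where called higher, blue where called lower in wildtype and grey where not called. A dashed line marks equal differences, and probes with no single gene symbol are not drawn. Most genes lie along the line, and Ciart, Hsd3b2 and Apob are labelled as genes with a called interaction.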

How the data were processed

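RNA of 12 organs was hybridised to Illumina mouse bead arrays. The authors deposited a summary signal (intensity) per probe, linear and not normalized between arrays, and a detection p-value for each signal. How the p-values were calculated is not known here. They also deposited normalized intensities, used here as an alternative. The submitters' processing notes name lumi without a version.

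The signals were quantile normalized over the 12 arrays and taken to log2, and no background was subtracted (the lowest deposited signal was 71.7). A probe was kept where 1 or more of the 6 wildtype arrays had a detection p-value under 0.01. Of the 18640 kept, 16155 had 1 gene symbol, 8 several and 2477 none. Names came from the platform annotation, updated through RefSeq (GRCm38.p6). The software was limma 3.58.1 under R 4.3.3, with data.table at version 1.17.8. One fit of the 12 arrays in 4 groups had 8 residual and 4.08 prior degrees of freedom, and p-values were two-sided and given a Benjamini-Hochberg adjustment over the 18640 probes. The fit was tested on simulated data. The number of arrays limits the precision, since signals carry no count of molecules.

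The comparison, the 39 gene lists and the 22 pairs were chosen with earlier results of these data known. Genes named are the 10 largest differences each way with no overlap, up to 3 members at each end of a list, markers of cell types, both members of pairs and members that complete a complex or a small count. Myh7, Lmod2, Nkx2-5, Lep, Aqp1, Napsa, Egr1, Fos, Actb and the 6 genes with opposed probes were named after their values were seen. Alternatives were the neqc correction, median centring, the authors' normalized values, normalization or fit of the wildtype arrays alone, 4 other filters, the replicate block, trended robust moderation, the mean of a gene's probes and leaving out single arrays.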

Additional observations from a re-analysis of the deposited data

Results flagged for a closer look

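The difference between heart and kidney itself differed between wildtype and PAI-1 knockout mice for 21 of 18640 probes, by the interaction of genotype and organ in limma at an adjusted p under 0.05. Of these, 7 had a gene name and 14 had none, and 6 had opposite signs in the genotypes. Ciart, a repressor of the circadian clock, was measured by 3 such probes, whose interactions were -1.62, -0.80 and -1.67 on the log2 scale. For the probe at -1.62, WT/HT read 6.98 ± 0.09 and WT/KID 7.35 ± 0.25 (SD, n = 3), and KO/HT read 7.97 ± 0.38 and KO/KID 6.72 ± 0.13, so that neither side alone carried the difference. Apob, the protein of lipoprotein particles, had an interaction of 0.71, with differences between heart and kidney of -2.10 in wildtype and -2.81 in knockout. Hsd3b2, a steroid dehydrogenase, had one of -1.11, with 11.51 ± 0.20 in WT/KID and 10.46 ± 0.19 in KO/KID. Fbxl22, an F-box protein of heart muscle, had one of 0.48 and Haghl one of -0.60. The 14 probes with no name ranged from -1.81 to 2.28. Of the 21 probes 15 were called between the wildtype organs, and none of the genes was among the 20 with the largest differences.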

How the results depend on the processing

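The counts of probes kept within 1.5 times of their reported values under all alternatives but a pair. With the neqc background correction, which stretches differences of dim probes, 5502 probes were higher and 4750 lower at a false discovery rate under 10% and 1.5-fold, where 3385 and 3020 are reported. With each array centred on its median in place of quantile normalization, 4636 were higher and 7737 lower at an adjusted p under 0.05, and 2160 and 4166 at the 1.5-fold criterion. The share of higher calls was then 37.5% in place of 53.3%, or 34.1% in place of 52.8%, and the median over all kept probes was -0.10 in place of 0.03. Leaving out each of the 6 arrays gave 6529 to 6703 higher and 5707 to 5927 lower probes (3355 to 3411 and 3006 to 3057 at 1.5-fold), and 92.1 to 93.8% of the reported calls were made again. With WT/HT replicate 1 as the sole wildtype heart, added after the data were seen, 80.8% were. Whether the replicate number pairs the arrays is not known. The deviations of same-numbered hearts and kidneys correlated at 0.00, -0.08 and 0.06, and those of differently numbered ones at -0.075 to 0.0807. Deviations from means of 3 arrays in different organs cannot decide it. The replicate block gave 6848 higher and 5936 lower.

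Of 4053 values of 203 named genes under the alternatives, 3920 kept the direction and the side of the threshold, 101 kept the direction and lost the call, 9 gained one and 23 changed sign. With arrays centred on their medians Asph was at -0.060, Cox7a2 at -0.45, Kdm6a at -0.097 and Esrra at -0.0044, and the calls of Agtr1a, Eif2s3x, Esrrg, Gys1, Col1a1 and Wnk1 were among the 10 lost. Averaging the detected probes of a gene gave 0.082 for Acads, -0.35 for Ddo, 0.22 for Gsta1, 0.21 for Oxct1, -0.39 for Slc8a1 and -0.18 for Ypel5, genes whose probes point in opposite directions. Over the arrays left out in turn, values ran from -0.031 to 0.061 for Cox7a2, -0.049 to 0.052 for Myl7, -0.025 to 0.12 for Uty, -0.24 to 0.49 for Fos, -0.66 to 0.058 for Egr1 and -0.077 to 0.0092 for Ldha. With the sole heart, Egr1 was at 0.65, Ldha at 0.0030, Myl7 at -0.051 and Cdh2 at -0.042. The lists' values moved too. Of 2340 counts and medians under the alternatives, 2106 stayed within 1.5 times (counts) or within 1 SD between arrays (medians), 227 moved further and 7 changed sign. With neqc the medians of the collecting duct, the Hox genes and the ion channels were -3.01, -2.99 and 2.55, and with the authors' normalized values -0.85, -1.03 and 0.66, in place of -1.40, -1.60 and 1.08, and epithelial identity, at -1.30, was at -2.89 and -0.76. Centring took the endothelial median of 1.04 to 0.67 and that of the macrophages from 0.44 to 0.21. Of the medians, centring turned cytosolic ribosomal proteins to -0.038, sex chromosome transcripts to -0.041, the clock to -0.27 and senescence to -0.15. The immediate early genes were at 0.0022 with detection asked of 3 arrays, 0.058 without WT/HT replicate 2 and 0.29 with the sole heart. The cause of these changes was not tested where no construction is named. Detection limits the values of absent genes, and 3 arrays a group limit the precision.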

Other observations

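Cell types that lie at the border of a dissected organ were looked for in both organs. Of 15 genes of the adrenal gland 2 were measured, and 1, Dbh, which makes noradrenaline, was higher in WT/HT (0.39). Of 20 skeletal muscle genes 8 were measured, 6 higher and 2 lower. Eno3 (6.69), the muscle enolase, and Myl1 (4.92), a myosin light chain, led. Lower were Pvalb (at least 9.07-fold), a calcium buffer that the distal tubule also makes, and Actn3, an actinin of fast fibres (-0.13), whose call was lost without WT/HT replicate 2 (-0.13) or 3 (-0.09) or WT/KID replicate 2 (-0.13) or 3 (-0.11). Actn3 was detected in no heart, and Myh4, the other marker set for skeletal muscle, was not measured. Erythroid genes had 4 measured members, with Alas2 (0.81), the first enzyme of haem synthesis in red cells, and Hba-a1 (0.77), a globin chain, higher and Slc4a1 (-3.42), an anion exchanger of red cells and of the collecting duct, lower. Without WT/HT replicate 1 the differences of Alas2 and Hba-a1 were 0.51 and 0.54 and were not called, nor were they without WT/HT replicate 2 or WT/KID replicate 1 or 3 (0.72 to 0.85). The call of Alas2 was also lost without WT/KID replicate 2 (0.85), and both were lost with the authors' normalized values (0.59 and 0.81), with centred arrays (0.49 and 0.76), with trended robust moderation, with no filter and with detection at a p-value under 0.05. Of the mesothelium 3 of 4 genes were lower, with a median of -0.43, led by Gpm6a (-1.86). Of nerve and Schwann cells 3 of 6 were higher, with a median of 0.13, led by Pmp22 (1.66), a protein of myelin. Among these 6, 1 gene, Mbp, another protein of myelin, was lower (-0.59) by its brightest probe and higher by another (0.22).

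A part of the difference has no gene name here. Of the called probes 1727 had no single gene symbol, and the largest differences among them were 6.63, at least 88.1-fold higher in WT/HT, and -6.75.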
